A study of Mus musculus with 12 samples.

Results

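Secreted products of adipocytes were followed across 3 genotypes of PPARγ, the nuclear receptor that drives fat cell differentiation. The group held 9 genes, Adipoq, Lep, Retn, Cfd, Rbp4, Nampt, Apln, Nrg4 and Agt. Their rows were taken by gene symbol from the 55573 genes of the deposited count table, and each of the 9 was found. RNA came from fat cells that had been differentiated in dishes. Their source was the stromal vascular fraction (SVF), the non-adipocyte cells of digested fat, of inguinal subcutaneous depots of C57BL/6 mice. WT donors carried the unaltered receptor. In homozygous TA (T166A) donors alanine stands at the threonine that is phosphorylated, and in homozygous TD (T166D) donors aspartate mimics the phosphate. Each genotype had 4 libraries, and the labels name no treatment beyond the differentiation medium.

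Both mutations were made with CRISPR-Cas9 and are carried by every cell of the animal, so they were present in the precursors before differentiation began. The donors' age is not given in the sources used here. All cultures received the same hormones, with insulin at 850 nM and triiodothyronine at 1 nM throughout, and with IBMX at 0.5 mM, dexamethasone and indomethacin at 125 nM for the first 4 days, and were harvested on day 8. The labels do not say whether the 4 libraries of a genotype came from separate mice or from separate wells. The p-values below therefore measure the spread between libraries, which may be technical.

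Fat cells act as endocrine cells. Adiponectin (Adipoq) raises insulin sensitivity through its receptors in liver and muscle, leptin (Lep) reports fat stores to the brain, and resistin (Retn) opposes insulin action in mice. Adipsin (Cfd) is the serine protease that starts the alternative complement pathway, and Rbp4 carries retinol in plasma. Nampt makes the precursor of NAD inside cells and is also released. Apelin (Apln) and angiotensinogen (Agt), the precursor of the angiotensins, act on blood vessels, and neuregulin 4 (Nrg4) is an EGF-family ligand released by brown and beige fat. Several of these genes, Adipoq among them, are classical PPARγ targets.

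Against WT, 6 of the 9 genes differed in TD, where 29.2% of all tested genes did, and 4 in TA, where 11.1% did. Nrg4 was the gene that separated the genotypes most, at 10.2 ± 1.29 CPM (counts relative to the normalized depth of the library; SD, n = 4) in WT, 18.0 ± 5.43 in TA and 3.91 ± 0.979 in TD. Agt, Cfd, Adipoq and Nampt were lower in TD, Lep and Rbp4 were lower in TA, and Apln was higher in both mutants. Nampt passed in TD by a narrow margin, and its difference in TA, which was not called, was as large (log2 fold change -0.28 and -0.30). Differences were called at an adjusted p under 0.05 in edgeR's quasi-likelihood test, adjusted by the Benjamini-Hochberg method over 15117 genes. All 9 genes passed the filter on low counts, and each had at least 58 counts in every library.

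Total counts ran from 16553324 to 20324286 per library, and the 9 genes together took 0.790% ± 0.0553 (SD, n = 4) of them in WT, 0.747% ± 0.0935 in TA and 0.609% ± 0.0637 in TD. All 14 adipocyte markers examined were detected in each genotype. Their summed level was 26640 to 29842 CPM in WT, 25691 to 33406 in TA and 18993 to 20800 in TD. Pparg, the mutated gene, was at 354 ± 19.8 CPM in WT, 373 ± 46.1 in TA and 237 ± 24.2 in TD, lower in TD than in WT (log2 fold change -0.58, adjusted p = 0.000429). A changed codon is not visible in counts per gene, so these values do not check the genotype labels. In RNA of whole cultures, fewer adipocytes and less of a transcript in each adipocyte cannot be told apart.

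**Figure D1:**
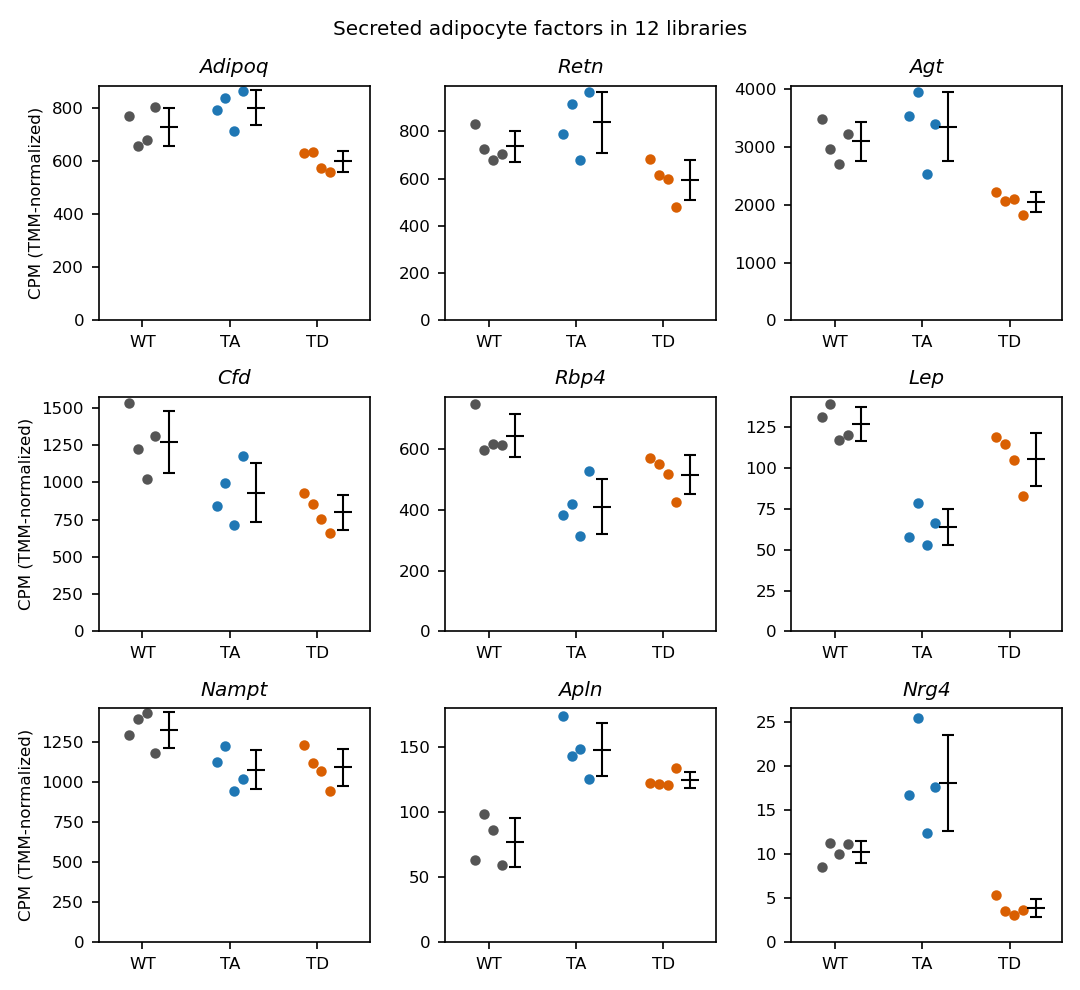
Normalized level (CPM, linear axis from 0) of the 9 secreted factors in each of the 12 libraries, 1 panel per gene, with points for libraries in replicate order and bars for mean ± SD of 4 libraries per genotype. For Nrg4 the TD libraries lie at 3.08 to 5.33 CPM, below all WT and TA libraries, and for Lep the TA libraries lie at 52.8 to 78.4 CPM, below all others.

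The sequence before an annotated transcript start of 5 of these genes is given, for those whose levels carry the contrasts described below: Adipoq, Agt and Nrg4, which were lower in TD than in both other genotypes, and Lep and Rbp4, which were lower in TA than in WT. Each is the 250 bases before a RefSeq transcript start on GRCm38.p6, written 5′ to 3′ on the strand of the gene. Capitals mark a hexamer AGGTCA, the core of PPAR response elements, a TTGCNNAA site of the C/EBP type, or a TATAAA box, on either strand.
Adipoq (chr16:23146286-23146535, plus strand): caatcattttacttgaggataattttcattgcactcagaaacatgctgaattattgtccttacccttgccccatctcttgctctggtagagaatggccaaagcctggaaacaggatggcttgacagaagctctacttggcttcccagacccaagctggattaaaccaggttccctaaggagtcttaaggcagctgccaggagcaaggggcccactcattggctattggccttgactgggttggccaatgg
Agt (chr8:124569707-124569956, minus strand): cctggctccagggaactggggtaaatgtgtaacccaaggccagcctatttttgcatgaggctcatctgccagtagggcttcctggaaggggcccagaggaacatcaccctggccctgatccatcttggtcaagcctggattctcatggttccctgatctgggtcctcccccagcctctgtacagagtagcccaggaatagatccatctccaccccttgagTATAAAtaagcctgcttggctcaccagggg
Nrg4 (chr9:55283626-55283875, minus strand): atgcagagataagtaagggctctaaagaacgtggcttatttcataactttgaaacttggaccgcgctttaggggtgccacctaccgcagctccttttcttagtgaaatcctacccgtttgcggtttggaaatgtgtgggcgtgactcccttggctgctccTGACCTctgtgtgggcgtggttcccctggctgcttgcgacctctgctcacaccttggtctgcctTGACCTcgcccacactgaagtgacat
Lep (chr6:29059971-29060220, plus strand): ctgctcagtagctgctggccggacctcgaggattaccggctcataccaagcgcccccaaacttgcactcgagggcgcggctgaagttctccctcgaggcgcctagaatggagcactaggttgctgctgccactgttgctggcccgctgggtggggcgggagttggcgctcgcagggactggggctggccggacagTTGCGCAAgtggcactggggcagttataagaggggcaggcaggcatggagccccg
Rbp4 (chr19:38124812-38125061, minus strand): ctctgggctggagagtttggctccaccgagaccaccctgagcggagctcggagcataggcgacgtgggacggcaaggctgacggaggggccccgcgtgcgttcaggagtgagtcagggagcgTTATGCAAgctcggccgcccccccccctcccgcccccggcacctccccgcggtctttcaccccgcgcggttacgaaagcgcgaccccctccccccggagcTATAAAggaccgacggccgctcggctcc

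All 9 genes were matched to RefSeq, with 10 windows because Rbp4 has a pair of annotated starts. The windows of Nrg4 and Nampt and the Rbp4 window printed above lie inside the gene models used for positions. Their transcript starts are thus not the outer ends of those models. AGGTCA or its reverse complement was in the windows of Nrg4, at -90 and -26 from the start, and of Nampt, at -151, and in 14.02% of all 32851 windows of that length. No member window held AGGTCANAGGTCA, the full direct repeat, which was in 0.0335% of all windows, or the looser GGTCANNGGTCA, which was in 0.164%. TTGCNNAA was in the windows of Lep, at -55, and Rbp4, at -128, against 9.56% of all windows. TATAAA lay at -30 in Agt and at -28 in Rbp4, against 12.4% of all windows. CCAAT was found in Adipoq and in the farther Rbp4 window, against 33.8% of all windows, and GGGCGG in Lep, Rbp4, Nampt and Apln, against 32.7%. CACGTG, in 6.02% of all windows, was in none of the member windows, and Retn and Cfd held none of the motifs searched. All motifs were searched on both strands, and the direct repeats contain the hexamer or most of it. These matches describe letters and not binding, and PPARγ also binds far from transcript starts.

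Among the hormones that act on insulin sensitivity, adiponectin and resistin were lowest in TD. Adipoq (chr16:23146536-23158028 on GRCm38, plus strand) stood at 771, 656, 681 and 804 CPM in WT replicates 1 to 4, at 793, 837, 714 and 864.5 CPM in TA, and at 631, 636, 574 and 557 CPM in TD. The TD libraries were the 4 lowest of the 12, and WT and TA overlapped. Adipoq fell in TD relative to WT (log2 fold change -0.28, SE 0.088, adjusted p = 0.0253, a fold of 0.824) and relative to TA (-0.42, SE 0.088, adjusted p = 0.00464). TA and WT did not differ by the test (0.14, 95% interval -0.047 to 0.33, adjusted p = 0.357). The difference from WT was small, and its call was lost without WT replicate 1 (adjusted p = 0.0794), WT replicate 4 (0.0869), TD replicate 3 (0.0764) or TD replicate 4 (0.0854). Without both TD replicates 3 and 4, the TD libraries with the most preadipocyte marker RNA, it was -0.20 against WT (adjusted p = 0.289) and -0.34 against TA (0.118).

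Retn (chr8:3655770-3660110, plus strand) had 832, 727, 679 and 706 CPM in WT, 790.05, 916, 680.4 and 966 CPM in TA, and 684, 615, 597 and 479.99 CPM in TD. Only TD replicate 1 reached into the range of WT and TA. Resistin was lower in TD than in TA (log2 fold change -0.50, SE 0.12, adjusted p = 0.0101), a call lost without TD replicates 3 and 4 (-0.37, adjusted p = 0.164). Against WT the difference of -0.31 missed the threshold (95% interval -0.56 to -0.057, adjusted p = 0.0616), whereas DESeq2 called it (0.0341). TA and WT differed by 0.19 (adjusted p = 0.355). The resistin paralogs Retnlb and Retnlg had no counts in any library and Retnla had 6 to 30 counts, so few reads could have been split among them.

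Leptin had its lowest levels in TA. Lep (chr6:29060220-29073877, plus strand), whose window above holds the C/EBP-type site, was at 131, 139, 117 and 120.2 CPM in WT, at 57.8, 78.4, 52.8 and 66.1 CPM in TA, and at 119, 115, 105 and 82.9 CPM in TD. Each TA library lay below each WT and each TD library, and TD replicate 1 lay inside the WT range. The TA level was 0.503 of the WT level (log2 fold change -0.99, SE 0.12, adjusted p = 6.37e-05), and TD was higher than TA (0.72, SE 0.12, adjusted p = 0.00095). In TD against WT the value was -0.27 (95% interval -0.52 to -0.014, adjusted p = 0.105), called only when low-count genes were left in the test (0.0157). Both contrasts with TA were called with each library left out in turn.

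Rbp4 (chr19:38116629-38125281, minus strand), the retinol carrier, showed a like order of genotypes. It was at 749, 596, 616 and 612 CPM in WT, at 381, 418, 315 and 528 CPM in TA, and at 570.3, 551, 517 and 424 CPM in TD. All WT libraries were above all others, and TA and TD overlapped through TA replicate 4 and TD replicates 3 and 4. The fall in TA was called (log2 fold change -0.65, SE 0.13, adjusted p = 0.00486). The TD libraries lay apart from WT as well, yet their value of -0.32 missed the threshold (adjusted p = 0.0846) and passed it in a fit to WT and TD libraries alone (0.026). TD stood 0.33 above TA (95% interval 0.045 to 0.61, adjusted p = 0.103), which was called without TA replicate 4 (0.48, adjusted p = 0.0163).

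Adipsin fell in TD. Cfd (chr10:79890853-79892655, plus strand) was at 1529.5, 1221, 1022 and 1309.5 CPM in WT, at 842, 997, 711 and 1174 CPM in TA, and at 929, 858, 752 and 658 CPM in TD. The TD libraries all lay below the WT libraries, while TA replicate 4 lay within WT and the others below it. The fall in TD was to 0.629 of WT (log2 fold change -0.67, SE 0.15, adjusted p = 0.00366), and it was not called without TD replicates 3 and 4 (-0.51, adjusted p = 0.0914). The TA value was -0.45 (95% interval -0.77 to -0.13, adjusted p = 0.0672), which DESeq2 called (0.0248), as did the fits without TA replicate 4 (0.0209) or WT replicate 3 (0.0399). TD and TA differed by -0.22 (95% interval -0.54 to 0.097, adjusted p = 0.339).

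The vascular hormones moved in opposite directions in TD. Agt (chr8:124556534-124569706, minus strand) was the highest of the 9 genes, at 3484, 2965, 2702 and 3232 CPM in WT, 3539.9, 3946.5, 2531 and 3392 CPM in TA, and 2221, 2065, 2098.5 and 1819.6 CPM in TD. All TD libraries were below all others, and WT and TA overlapped over most of their range. Agt was lower in TD than in WT (log2 fold change -0.59, SE 0.12, adjusted p = 0.00209, a fold of 0.663) and than in TA (-0.71, SE 0.12, adjusted p = 0.00116). Both calls were kept with each library left out and without TD replicates 3 and 4. With libraries scaled to adipocyte markers neither was called (-0.10, adjusted p = 0.293, and -0.14, adjusted p = 0.144). That scaling moves every gene up by construction. Both values lay below its medians over all genes, 0.50 against WT and 0.58 against TA. TA and WT differed by 0.11 (95% interval -0.14 to 0.37, adjusted p = 0.621).

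Apln (chrX:48025146-48034853, minus strand) was at 63.1, 98.9, 86.4 and 59.6 CPM in WT, at 174, 143, 149 and 125 CPM in TA, and at 122, 121.3, 121 and 134 CPM in TD. It was the only one of the 9 genes with higher levels in all libraries of both mutants than in all WT libraries. The rise was 1.92-fold in TA (log2 fold change 0.94, SE 0.14, adjusted p = 0.000274) and 1.62-fold in TD (0.69, SE 0.14, adjusted p = 0.00144). Both contrasts use the same WT libraries. Compared directly, TD and TA differed by -0.25 (95% interval -0.53 to 0.039, adjusted p = 0.228). Both rises were called in each alternative setting tried.

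Neuregulin 4 was the only gene of the group that differed in all 3 contrasts. Nrg4 (chr9:55220222-55326844, minus strand), whose window above holds a pair of AGGTCA hexamers, had 8.50, 11.3, 10.0 and 11.2 CPM in WT, 16.7, 25.4, 12.4 and 17.7 CPM in TA, and 5.33, 3.55, 3.08 and 3.69 CPM in TD. The 3 genotypes did not overlap at all, with TA above WT and WT above TD. Relative to WT, Nrg4 rose in TA (log2 fold change 0.81, SE 0.19, adjusted p = 0.0113) and fell in TD (-1.39, SE 0.21, adjusted p = 0.000263). The TD level was also below that of TA (-2.20, SE 0.21, adjusted p = 6.31e-06). These calls were kept in each setting tried, and they rest on few reads, 58 to 94 counts per library in TD.

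The Nrg4 gene model shares 368 exonic bases with Fbxo22, which lies on the opposite strand, had a mean of 714.5 counts per library against 193.2 for Nrg4, and codes for an F-box protein. The strand setting of the counting is not given in the sources used here, so part of the Nrg4 counts may be Fbxo22 reads and the values of Nrg4 are uncertain. Fbxo22 itself was lower in TD than in WT (log2 fold change -0.27, adjusted p = 0.00884) and in TA (-0.42, adjusted p = 0.000939), and it was not called in TA against WT (0.15, adjusted p = 0.202).

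Nampt (chr12:32819545-32853349, plus strand), the enzyme of NAD salvage, varied least between genotypes. It was at 1292, 1392, 1430.2 and 1178.5 CPM in WT, at 1121, 1221, 941 and 1021 CPM in TA, and at 1227.5, 1120.5, 1070.4 and 945 CPM in TD. Every pair of genotypes overlapped. TD passed the test against WT by a narrow margin (log2 fold change -0.28, SE 0.10, adjusted p = 0.0484). This call was lost when WT replicate 1, 2 or 3, TA replicate 1 or 4, or TD replicate 2, 3 or 4 was left out, with an adjusted p of up to 0.161 (without TD replicate 4). In TA the difference was as large (-0.30, 95% interval -0.51 to -0.084) and missed the threshold (adjusted p = 0.0697), whereas DESeq2 called it (0.0237). TD and TA differed by 0.020 (95% interval -0.19 to 0.23, adjusted p = 0.916). The span of Nampt contains Gdap10, a non-coding RNA on the same strand that shares no exonic base with it.

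**Figure D2:**
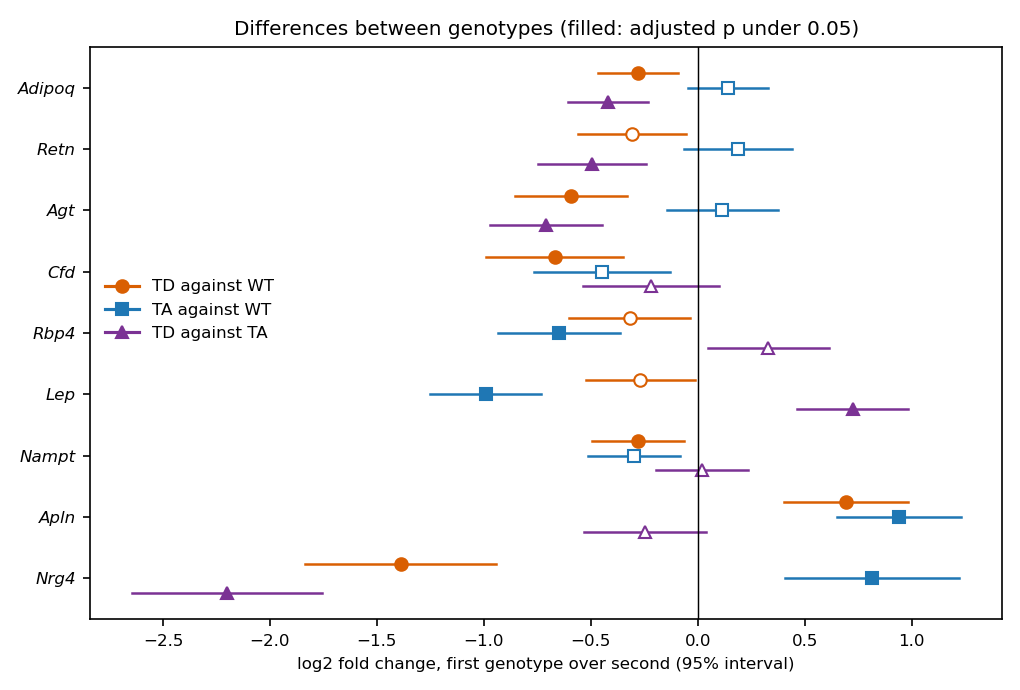
Log2 fold change (points) and 95% interval (lines) of each secreted factor in the 3 contrasts between genotypes, filled where the adjusted p is under 0.05. Nrg4 lies at -1.39 (circle, TD against WT), 0.81 (square, TA against WT) and -2.20 (triangle, TD against TA), Apln is right of 0 in both contrasts with WT, and Lep is left of 0 in TA against WT and right of 0 in TD against TA.

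Counted by contrast, TD had 5 of the 9 genes lower and 1 higher relative to WT, where 29.2% of all tested genes were called, 14.2% as lower and 15.1% as higher. The median log2 fold change of the 9 was -0.31, against 0.011 over all genes. TA had 2 higher and 2 lower relative to WT, with 11.1% of all genes called, 6.72% as higher and 4.41% as lower, and the median was 0.11 against -0.0055. In TD against TA 1 was higher and 4 were lower, with 16.7% called, 7.33% as higher and 9.37% as lower, and the median was -0.25 against 0.023. TD and WT libraries did not overlap for 6 of the 9 genes (32.2% of all genes), TA and WT libraries for 4 (13.6%), and TD and TA libraries for 4 (19.9%). The contrasts share libraries, so these counts are not independent of each other.

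Marker RNA of several cell types also differed between the genotypes. Of the 14 adipocyte markers, TD had 13 lower and none higher relative to WT, with a median log2 fold change of -0.50, and 10 were lower in TD than in TA. In TA against WT 3 were higher and 1 was lower. Of 13 tested preadipocyte and fibroblast markers, 12 were higher in TD and 8 in TA than in WT, with none lower. Their summed level, led by the collagen gene Col3a1, was 12796 to 17069 CPM in WT, 14087 to 25444 in TA and 22140 to 32254 in TD. Dlk1, a preadipocyte marker, was not tested, with no counts in WT and TD and a mean of 0.0146 CPM in TA. Endothelial markers summed to 43.6 to 84.3 CPM in WT, 66.8 to 119 in TA and 137 to 175 in TD, with 9 of 10 higher in TD than in WT and 4 of 10 in TA. Skeletal muscle markers summed to 7.62 to 12.8 CPM in WT, 17.0 to 51.4 in TA and 16.8 to 189 in TD, with all 11 tested higher in TD than in WT and 4 in TA, and Myog and Myod1 had no counts in WT. Macrophage markers summed to 292 to 866 CPM in WT, 146 to 632 in TA and 667 to 922 in TD, with 1 of 12 higher in TD than in WT and none called in TA. In TD against TA 5 preadipocyte, 4 endothelial, 5 muscle and 3 macrophage markers were higher and none lower.

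Within TA and within TD a single library was lowest for most of the group, which was not so in WT. There replicate 3 was lowest for 4 genes, the most of any WT library. WT replicate 2, with the highest preadipocyte sum of WT, 17069 CPM, was lowest for 2 genes and highest for 3. TA replicate 3 was the lowest TA library for 8 of the 9 genes, all but Apln, and had the highest preadipocyte sum of TA, 25444 CPM. TD replicate 4 was the lowest TD library for 7 genes, all but Apln and Nrg4, and had the highest preadipocyte sum of all, 32254 CPM. The lowest adipocyte sum of each genotype was in WT replicate 3 (26640 CPM), TA replicate 3 (25691) and TD replicate 4 (18993). WT replicate 2 was close to WT replicate 3, at 26750 CPM. The part that differences in culture composition have in the levels of the 9 genes, or of the receptors and other secreted factors below, was not tested.

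**Figure D3:**
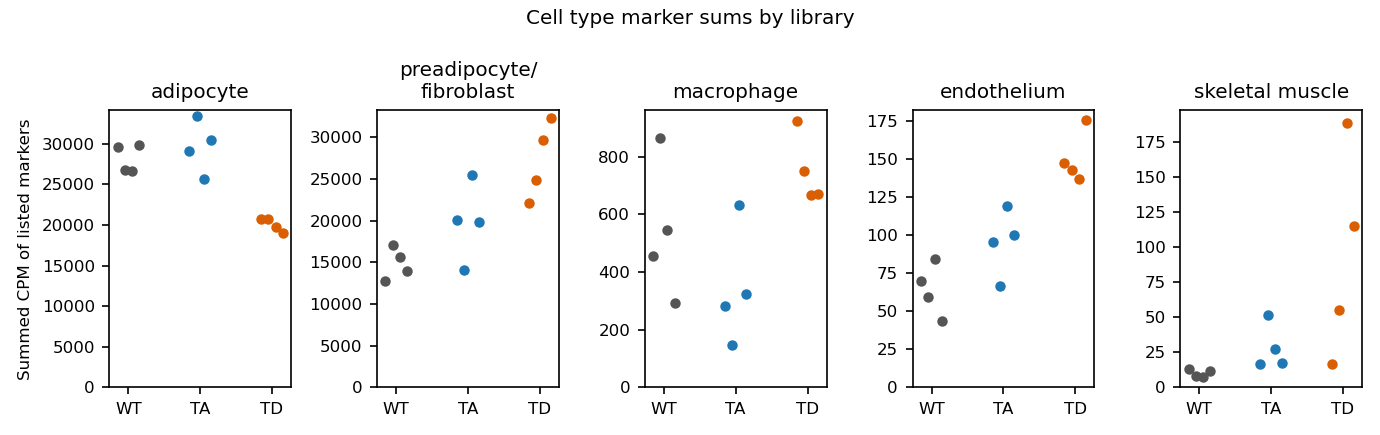
Summed level (CPM, linear axis from 0) of 5 lists of cell type markers in each library, 1 panel per list with its own scale. The adipocyte sum of the TD libraries, 18993 to 20800 CPM, lies below that of all WT and TA libraries, and the preadipocyte and fibroblast sum of TD, 22140 to 32254 CPM, lies above that of all WT libraries.

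Setting the summed adipocyte markers equal in all libraries, an alternative chosen after the data were seen, gave the levels relative to those markers. Pparg, the mutated gene and itself lower in TD, is among them. The scale thus does not tell adipocyte number from marker level in each adipocyte. This scaling moved the median of all genes to 0.50 in TD against WT, to 0.58 for TD relative to TA and to -0.070 for TA relative to WT. On this scale Nrg4 was still lower in TD than in WT (log2 fold change -0.91, adjusted p = 0.000932) and than in TA (-1.62, adjusted p = 3.55e-05), and higher in TA than in WT (0.72, adjusted p = 0.0183). Apln stayed higher in TD (1.17, adjusted p = 0.000186) and in TA (0.87, adjusted p = 0.00746) than in WT, and Lep and Rbp4 stayed lower in TA than in WT (-1.08 and -0.72). The falls of Agt and Cfd in TD against WT were no longer called (-0.10 and -0.18, adjusted p = 0.293 and 0.195). Adipoq turned to a rise in TD against WT (0.21, adjusted p = 0.0151), and Retn, Nampt, Rbp4 and Lep changed sign without a call.

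By this scaling TD had 2 of the 9 genes higher and 1 lower relative to WT, where 65.2% of all genes were called as higher and 1.59% as lower. TA had 2 higher and 4 lower relative to WT, Cfd and Nampt now among them, with 3.29% and 5.76% of all genes. In TD against TA 4 were higher, Lep, Rbp4, Nampt and Cfd, and 1 lower, with 72.8% and 1.2% of all genes. This scaling adds about the same amount to every gene, so small values change sign by construction, and each is read against the moved median. In TD against WT, Adipoq, Lep, Retn, Rbp4 and Nampt (0.17 to 0.21) stayed below the median of 0.50, as did Cfd, Agt and Nrg4, and Apln lay above it. In TD against TA, where the median was 0.58, Adipoq (0.14), Retn (0.065), Cfd (0.34), Apln (0.30), Agt (-0.14) and Nrg4 (-1.62) stayed below it. Nampt (0.58) lay at that median, and Lep (1.29) and Rbp4 (0.89) lay above it.

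**Figure D4:**
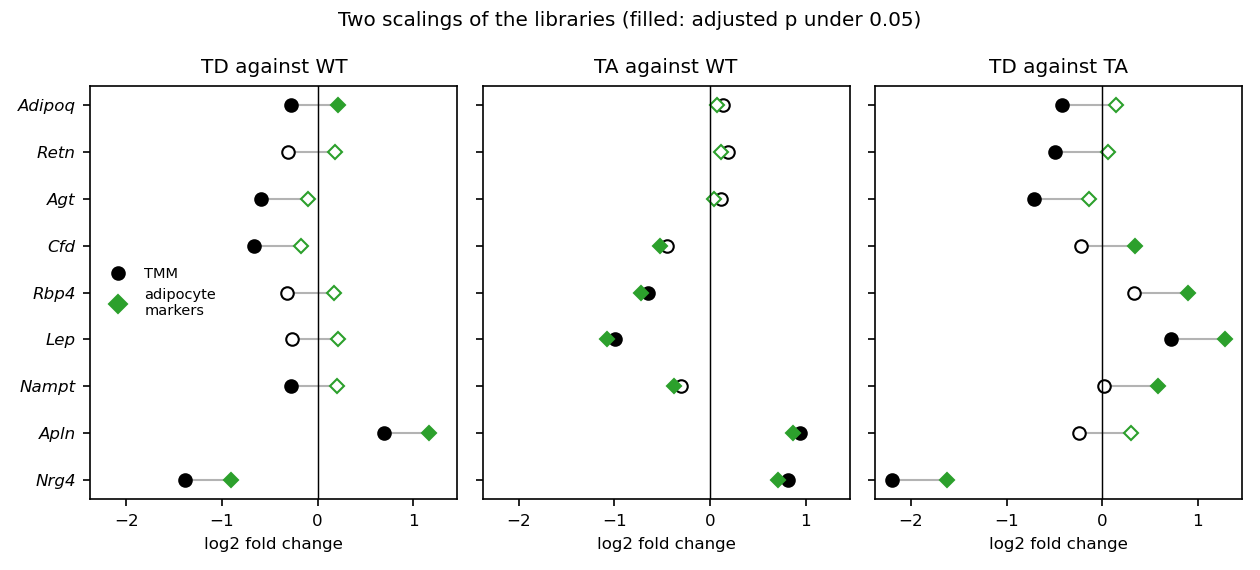
Log2 fold change of each secreted factor in the 3 contrasts with libraries scaled by TMM (black circles) or to equal summed adipocyte markers (green diamonds), filled where the adjusted p is under 0.05, with a line joining the values of a gene. In both contrasts with TD the diamonds lie to the right of the circles for all 9 genes, and Nrg4 stays left of 0 under both scalings, at -1.39 and -0.91 against WT.

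The levels of the 9 genes spanned a wide range. Divided by exon length, as CPM per kb averaged over the 12 libraries, Agt was highest at 1498, rank 18 of 15108 genes, followed by Cfd at 1085, Adipoq at 514, Retn at 458, Rbp4 at 389.5 and Nampt at 230.2. Apln at 37.0, Lep at 29.4 and Nrg4 at 1.77, rank 10136, were far below. Each gene was above the next in all 12 libraries, except that Retn was above Rbp4 in 6 and Apln above Lep in 8. The order of Apln and Lep turned with genotype, with Lep above Apln in 4 of 4 WT libraries and Apln above Lep in 4 of 4 TA and 4 of 4 TD libraries. Likewise Retn was above Rbp4 in 4 of 4 TA libraries and in 1 of 4 of WT and of TD. This order of genes is a description and was not tested.

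**Figure D5:**
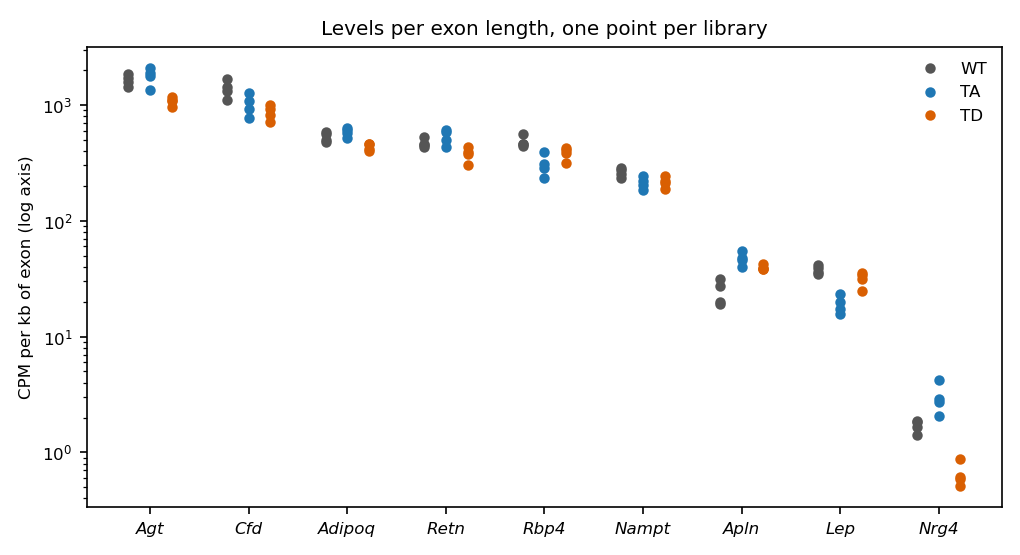
Level per exon length (CPM per kb, log axis) of the 9 secreted factors in each library, ordered by their mean, with 1 point per library and genotypes side by side. Agt and Cfd lie near 1000, Nrg4 lies near 1, and the genotype order differs between Apln, lowest in WT, and Lep, lowest in TA.

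The 9 genes differed in how much of their variation lay between genotypes. Of the squared deviation of log2 CPM over the 12 libraries, 90.8% lay between genotypes for Nrg4, 84.7% for Lep, 80.0% for Apln, 76.5% for Agt and 73.3% for Adipoq. The share was 65.6% for Rbp4, 60.4% for Cfd, 59.5% for Retn and 53.0% for Nampt. Profiles were compared by the root mean square (RMS) difference of log2 CPM, each gene centred on its mean over the 12 libraries. Retn and Adipoq were the closest pair (0.12), then Retn and Agt (0.16), Adipoq and Agt (0.18) and Rbp4 and Lep (0.23), while Nrg4 and Lep were farthest apart (1.21).

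Among 10545 candidates, tested genes averaging 5 CPM or more, the gene closest to Adipoq by the same measure was Slc25a5, an ADP/ATP carrier of mitochondria (RMS difference 0.050), and the next was Anxa6, an annexin (0.056). Closest to Lep were Lgals12, a galectin of fat cells (0.13), at 101 CPM in WT, 53.8 in TA and 89.9 in TD, and Npr1, a natriuretic peptide receptor (0.14), at 83.4, 40.6 and 72.7 CPM. Closest to Nrg4 were Sult2b1, a sulfotransferase (0.28), at 6.12, 12.4 and 2.88 CPM, and Cidec, a lipid droplet protein (0.36), at 746, 1057 and 381 CPM. For Apln they were Col15a1, a collagen (0.18), and Sema3c, a semaphorin (0.18), and for Agt Aacs, acetoacetyl-CoA synthetase (0.080), and Hacd2, an enzyme of fatty acid elongation (0.084). Msrb1 and Gpx1, both selenoproteins, were closest to Retn (0.082 each), and Dnajc4 and Macrod1 to Cfd (0.099 and 0.10). Pck2 was among the closest to Rbp4 (0.13), and Frg2f1 and Ppm1a were closest to Nampt (0.079 each). All of these distances share the same 12 libraries and are a description.

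Receptors and partners of the 9 factors were also measured in the same cultures. Of 27 listed, 22 passed the filter. Relative to WT, TD had 7 of them higher and 4 lower (median log2 fold change 0.44, against 0.011 over all genes), where 15.1% and 14.2% of all genes were called. TA had 6 higher and 2 lower (median 0.21 against -0.0055), where 6.72% and 4.41% of all genes were called. Between the mutants 6 were higher and 2 lower in TD (median 0.17 against 0.023), where 7.33% and 9.37% of all genes were called. The apelin receptor Aplnr rose in TD from 0.193 ± 0.149 to 0.922 ± 0.276 CPM, at most 22 counts a library (log2 fold change 2.22, adjusted p = 0.0109). Endothelial markers summed to 43.6 to 84.3 CPM in WT and 137 to 175 in TD, and their relation to Aplnr was not tested. Agtr1a, an angiotensin II receptor, was higher than in WT in TD (1.16, adjusted p = 0.000195) and in TA (0.66, adjusted p = 0.0174), at 11.3 ± 2.65 CPM in WT, 17.9 ± 3.60 in TA and 25.4 ± 3.56 in TD. Its level thus ran opposite to that of Agt in TD.

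Both adiponectin receptors fell in TD, Adipor1 by 0.36 on the log2 scale (adjusted p = 0.00105) and Adipor2 by 0.41 (adjusted p = 0.00446). In TA Adipor1 fell, from 146 ± 5.44 to 116 ± 8.02 CPM (log2 fold change -0.33, adjusted p = 0.0041), while Adipor2 rose (0.44, adjusted p = 0.00672). Adipor2 was lower in TD than in TA, at 376 ± 7.49 against 678 ± 59.7 CPM (-0.85, adjusted p = 2.89e-05). Ero1l and Gstk1, which act in the folding and secretion of adiponectin multimers, were lower in TD than in WT (-0.67, adjusted p = 0.0129, and -0.47, adjusted p = 0.0147), and Gstk1 was lower in TD than in TA as well (-0.46, adjusted p = 0.0272). Of the complement proteins that work with adipsin, Cfb, its substrate, rose in both mutants, from 40.01 ± 4.63 CPM in WT to 76.3 ± 13.7 in TA (0.93, adjusted p = 0.000249) and 86.2 ± 14.2 in TD (1.11, adjusted p = 8.19e-05). The central complement gene C3, named after its values were seen, also rose in TD (0.84, adjusted p = 0.000119) and in TA (0.45, adjusted p = 0.0142). The receptor gene C3ar1 was higher in TD than in TA (1.25, adjusted p = 0.0131). Macrophage markers summed to 667 to 922 CPM in TD and 146 to 632 in TA, and their relation to C3ar1 was not tested. In the angiotensin pathway Enpep, which cleaves angiotensin II, was lower in TA than in WT (-0.64, adjusted p = 0.0105) and higher in TD than in TA (0.86, adjusted p = 0.0011). Agtr1b had no counts in any library.

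A wider list of 40 other secreted factors of fat had 30 tested genes. Relative to WT, 12 were higher and 4 lower in TD (median log2 fold change 0.20) and 10 higher and 4 lower in TA (0.067). Between the mutants, 5 were higher and 3 lower in TD (0.22). The shares and medians over all genes are those given beside the receptors, 15.1% higher and 14.2% lower in TD, 6.72% and 4.41% in TA, and 7.33% and 9.37% between the mutants. TD exceeded WT most in C1qtnf9, an adiponectin paralog (2.18, adjusted p = 0.000276), Il6 (1.48, adjusted p = 0.00258), an inflammatory cytokine, and Saa3 (1.15, adjusted p = 0.000811), an acute phase protein. Haptoglobin (Hp, -0.53, adjusted p = 0.00971), C1qtnf12 (-0.45, adjusted p = 0.00358), a further adiponectin paralog, and Angptl4 (-0.38, adjusted p = 0.0231), an inhibitor of lipoprotein lipase, fell most. C1qtnf9 was low, at 2.41 ± 0.764 CPM in TD and 0.523 ± 0.149 in WT. Il6 was low as well, at 2.30 ± 0.528 CPM in TD and 0.816 ± 0.268 in WT, with 9 to 22 counts a library in WT. Hp was abundant, at 7826 ± 899 CPM in TD and 11276 ± 1306 in WT.

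In TA over WT the largest rises of that list were those of C1qtnf9 (1.69, adjusted p = 0.00404), Slit2 (1.45, adjusted p = 0.00023), a guidance protein, and Saa3 (1.06, adjusted p = 0.00325). Osteopontin (Spp1, -0.71, adjusted p = 0.0447) and chemerin (Rarres2, -0.49, adjusted p = 0.00655) were among the largest falls. In TD against TA adrenomedullin (Adm, 0.55, adjusted p = 0.000903) and the chemokine Ccl2 (0.46, adjusted p = 0.0182) were among those higher. Slit2 (-0.68, adjusted p = 0.0307), the protease inhibitor Cst3 (-0.61, adjusted p = 6.54e-05) and Hp (-0.54, adjusted p = 0.0154) were lower. Itln1, C1qtnf4 and C1qtnf5 had no counts in any library.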

How the data were processed

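RNA of SVF-differentiated adipocytes was measured in 12 libraries, 4 each of WT, TA and TD by their labels. According to the methods and the submitters' processing notes, bcl2fastq 2.17.1.14, cutadapt 1.9.1, HISAT2 2.0.1 and HTSeq 0.6.1 were used with GRCm38 (Ensembl release 97). The authors deposited raw read counts per gene, unnormalized, as 1 table and library by library, and 12 of 12 libraries were equal in both forms. The strand setting is not given in the sources used here. Dexamethasone is at 5 mM in the labels, and the methods give a micromolar unit. The labels give no batch or date. No replicate pair of the 18 agreed within sampling noise (chi-square per degree of freedom 4.95 to 38.7), so none was treated as 1 library deposited again, which does not tell separate mice from separate wells.

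Counts were filtered with filterByExpr (minimum count 10, total 15), scaled by TMM (factors 0.957 to 1.04) and tested two-sided with edgeR 4.0.16 quasi-likelihood fits in R 4.3.3, all 12 libraries in a single model without covariates. Benjamini-Hochberg adjustment covered the 15117 genes tested. The biological coefficient of variation was 12.9%. The study's methods name DESeq2, used here as an alternative (1.42.0). Levels are TMM-normalized CPM, with a prior count of 2 on the log2 scale. Exon lengths and positions came from GENCODE M21 (99.7% of identifiers matched) and promoter windows from RefSeq. The pipeline was tested on simulated data.

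The members and the lists of receptors, other secreted factors and cell type markers were chosen with earlier results of these data known. Besides the members and Pparg, the genes named are the 2 called rises and falls of largest size among receptors and partners and the 3 among other secreted factors in each contrast, the 2 genes closest to each member, markers at 0 or highest, and genes overlapping or paralogous to a member. Some genes that this rule names are not reported here. Alternatives were other scalings, filters, sets of libraries, DESeq2 and a block by replicate number.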

Additional observations from a re-analysis of the deposited data

Results flagged for a closer look

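Among the 27 sets of 4 libraries, 1 per gene and genotype, 2 held a library far from the others by Dixon's test at its 95% critical value, where chance alone gives about 1 in 20. Rbp4 in WT replicate 1 was at 748.84 CPM, and the other WT libraries were at 596 to 616 CPM. Without it the fall of Rbp4 in TA was still called. Apln in TD replicate 4 was at 133.82 CPM, and the other TD libraries were at 121 to 122 CPM. Without it the rise of Apln in TD was still called.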

How the results depend on the processing

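Over all settings, the calls of Lep and Apln, of Nrg4 in the 3 contrasts and of Rbp4 in TA kept their direction and stayed called. With the replicate number as a replicate block, 6, 4 and 5 of the 9 genes were called in TD against WT, TA against WT and TD against TA, as without it, of 4246, 1560 and 2488 genes, and no member's call changed. The numbers do not pair the libraries (correlations of -0.237 to 0.196 over 12 pairs). Leaving out 1 library, or TD replicates 3 and 4 together, gave 1516 to 4704 called genes in TD against WT, 1160 to 1939 in TA against WT and 634 to 3521 in TD against TA (2524 with all libraries), and 3 to 8, 4 to 5 and 3 to 6 of the 9 genes. For TD against TA the count was 1422 without TA replicate 2, 1584 without TD replicate 3, 1432 without TD replicate 4 and 634 without both of the latter, and Nampt ran from -0.042 (without TD replicate 1) and -0.040 (without TA replicate 3) to 0.092, and to 0.13 without TD replicates 3 and 4. Scaling to summed adipocyte markers, like the omission of TD replicates 3 and 4 chosen after the data were seen, called 10097 genes and 3 of the 9 in TD against WT and 11182 genes in TD against TA. It reversed Adipoq (0.21), Lep (0.21), Retn (0.18), Rbp4 (0.17) and Nampt (0.20) against WT, and Adipoq (0.14), Retn (0.065), Cfd (0.34) and Apln (0.30) against TA, since by construction it adds about the fall of those markers to each gene. Scaling by library totals ended the calls of Adipoq (-0.21, adjusted p = 0.0668) and Nampt (-0.21, adjusted p = 0.121) in TD against WT, and a minimum of 10 counts in every library that of Nampt (adjusted p = 0.0543). Without a filter on low counts 9, 6 and 6 of the 9 genes were called in TD against WT, TA against WT and TD against TA. The cause was not tested. Depth limits Nrg4 most, at 58 counts in its lowest library.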
